A study of Mus musculus with 18 samples.

Results

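The replication-dependent linker histones H1 are the genes Hist1h1a, Hist1h1b, Hist1h1c, Hist1h1d and Hist1h1e, chosen by name, and they were 5 of the 20683 genes in the deposited count table. They were measured in mouse erythroblasts, the precursors of red blood cells, taken from fetal liver of the cross FVB/n x C57BL/6. Every group, the untreated ones included, carried the genotype Trp53 -/- and was grown in StemPro medium with Epo, SCF and dexamethasone. Tunicamycin-treated cells received 2.5 ug/ml of the drug for 1.5 h, and untreated cells received none. Each treatment was read in 3 kinds of library with 3 libraries each, 18 samples in 6 groups: total RNA; cycloheximide footprints, from cells given 100 ug/ml over 5 min to hold elongating ribosomes; and harringtonine footprints, from cells given 2 ug/ml, which gathers ribosomes where translation begins. The series used tunicamycin, which blocks N-glycosylation in the endoplasmic reticulum, to induce phosphorylation of the translation initiation factor eIF2.

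Linker histone H1 binds where DNA enters and leaves the nucleosome and helps to fold chromatin. The 5 genes are made in S phase together with the core histones, when new chromatin needs them in bulk. Their mRNAs have no introns and typically end in a stem-loop instead of a poly(A) tail. The stem-loop binding protein Slbp takes the place of the poly(A)-binding protein and supports both processing and translation. Cells that stop dividing come to rely on H1f0, a replacement linker histone whose mRNA carries a poly(A) tail, and chromatin compaction is a known feature of maturing erythroblasts.

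The 5 genes lie in the histone cluster of mouse chromosome 13. The coordinates and sequences come from RefSeq with build GRCm38.p6, where the genes are called H1f1, H1f5, H1f2, H1f3 and H1f4 in the order Hist1h1a to Hist1h1e. Hist1h1a spans chr13:23763668-23764412 on the plus strand, Hist1h1b chr13:21779832-21780625 on the minus strand, Hist1h1c chr13:23738807-23739531 on the plus strand, Hist1h1d chr13:23555032-23555807 on the plus strand and Hist1h1e chr13:23621777-23622558 on the minus strand. The annotated transcripts are 725 to 794 bases long.

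The 125 bases before each transcription start are shown because the family shares a promoter layout that 1 member lacks in part. Capitals mark the H1 box (AAACACA), the CCAAT element and the TATA box, searched by its letters. Each sequence runs 5′ to 3′ on the gene's own strand and ends at the base before the start.
Hist1h1a, chr13:23763543-23763667, plus strand: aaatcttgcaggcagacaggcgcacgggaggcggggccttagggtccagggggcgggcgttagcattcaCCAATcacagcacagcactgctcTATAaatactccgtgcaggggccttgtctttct
Hist1h1b, chr13:21780626-21780750, minus strand: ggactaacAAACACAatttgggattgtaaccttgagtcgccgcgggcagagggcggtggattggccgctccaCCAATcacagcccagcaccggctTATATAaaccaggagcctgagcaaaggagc
Hist1h1c, chr13:23738682-23738806, plus strand: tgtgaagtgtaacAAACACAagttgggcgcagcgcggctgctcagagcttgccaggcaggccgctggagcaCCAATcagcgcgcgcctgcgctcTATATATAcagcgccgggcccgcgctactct
Hist1h1d, chr13:23554907-23555031, plus strand: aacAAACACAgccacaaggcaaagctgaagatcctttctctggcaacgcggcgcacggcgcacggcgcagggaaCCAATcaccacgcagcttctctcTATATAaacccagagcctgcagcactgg
Hist1h1e, chr13:23622559-23622683, minus strand: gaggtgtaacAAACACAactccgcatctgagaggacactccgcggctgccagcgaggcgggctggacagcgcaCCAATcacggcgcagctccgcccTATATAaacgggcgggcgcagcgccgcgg

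The H1 box, an element named after H1 promoters, stood at position -117 in Hist1h1b, -112 in Hist1h1c, -122 in Hist1h1d and -115 in Hist1h1e, counted to its first base from the transcription start. Over the 250 bases searched before each start, it was in 4 of the 5 H1 promoters and on neither strand in Hist1h1a. The CCAAT nearest the start lay between -56 and -51 in all 5 genes, and the nearest TATA between -33 and -26. Among 32851 RefSeq promoters of the same length, 3.17% held AAACACA on the gene's strand and 6.25% on either strand. CCAAT was in 19.1% on the gene's strand and 33.8% on either strand, and TATA, which reads the same on both strands and can overlap itself, was in 34% of promoters. All 3 motifs on the gene's strand were in 102 promoters, or 0.31%. These matches are letters in a window and were not tied to any measured value.

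The counts were raw counts made by the authors, and they are given here as counts per 1000000 of the scaled library (CPM), with M for 1000000 reads. Changes in CPM are relative to the rest of the library, so a rise or fall is not an amount per cell. Reads that match more than 1 H1 gene may have been split or dropped, which the labels do not describe, so counts of single H1 genes are uncertain to that extent. The RNA libraries held 14.5 to 43.5 M reads in tunicamycin-treated cells and 12.9 to 49.0 M in untreated cells. Footprints on coding sequences (CDS) summed to 4.53 to 5.09 M against 6.42 to 6.65 M, and footprints on 5′ leaders to 0.391 to 0.590 M against 0.275 to 0.371 M. All 11 erythroblast markers reached 5 CPM in RNA, whereas none of the macrophage, neutrophil or monocyte, hepatocyte, and endothelial or stromal markers did. Of other lineages, 1 of 6 megakaryocyte markers (Gp5) and 2 of 5 mast cell markers did, and the mast cell list summed to 137 to 214 CPM under tunicamycin and 134 to 208 CPM without it. Nothing in the labels says that libraries of 1 group came from separate animals, so p-values measure the spread between these libraries. A change in the share of cells in S phase and a change in histone mRNA per cell cannot be told apart in such bulk samples.

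Relative to the scaled library, CDS footprints, which count ribosomes on the coding sequence, rose in 1 of the 5 H1 genes under tunicamycin, Hist1h1b. The other 4 did not pass the test. Hist1h1b (H1.5) had 1599, 1615 and 1840 CDS CPM in the 3 tunicamycin libraries, against 1284, 1133 and 1326 CPM in the 3 untreated libraries. Every tunicamycin library lay above every untreated one in CPM. The raw CDS footprints of Hist1h1b summed to 24486 under tunicamycin and 24481 in untreated cells, with smaller CDS totals in the tunicamycin libraries. The fitted log2 change was 0.43 ± 0.09 (SE, n = 3 each, edgeR adjusted p = 0.0236). Among all 9265 genes tested, 1.78% were called higher under tunicamycin, and in 11.3% the groups did not overlap with tunicamycin higher. The call was lost without tunicamycin replicate 2 (adjusted p = 0.0711) or 3 (0.143), and without untreated replicate 1 (0.0558) or 2 (0.157), while the log2 change stayed between 0.36 and 0.47.

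Hist1h1c (H1.2) had 168, 214 and 209 CPM under tunicamycin, against 153, 161 and 175 CPM in untreated cells, with 1 tunicamycin library inside the untreated range. Its log2 change was 0.27 ± 0.10 (adjusted p = 0.192). It passed with the replicate number as a block (0.0262) and without tunicamycin replicate 1 (0.0412). Hist1h1d (H1.3) had 1200, 1215 and 1731 CPM under tunicamycin, against 1248, 1073 and 1120 CPM in untreated cells. The groups overlapped, and the third tunicamycin library stood above the other 5. The log2 change was 0.27 ± 0.12 (adjusted p = 0.289), and 0.070 without the third tunicamycin library.

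Hist1h1a (H1.1) averaged 761 ± 111 CPM under tunicamycin and 728 ± 103 CPM without it (SD, n = 3 each), a log2 change of 0.06 ± 0.12 (adjusted p = 0.845). Hist1h1e (H1.4) averaged 135 ± 39.4 CPM and 128 ± 29.4 CPM in the same order, a log2 change of 0.08 ± 0.18 (adjusted p = 0.889). In both genes the groups overlapped over most of their range.

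**Figure D1:**
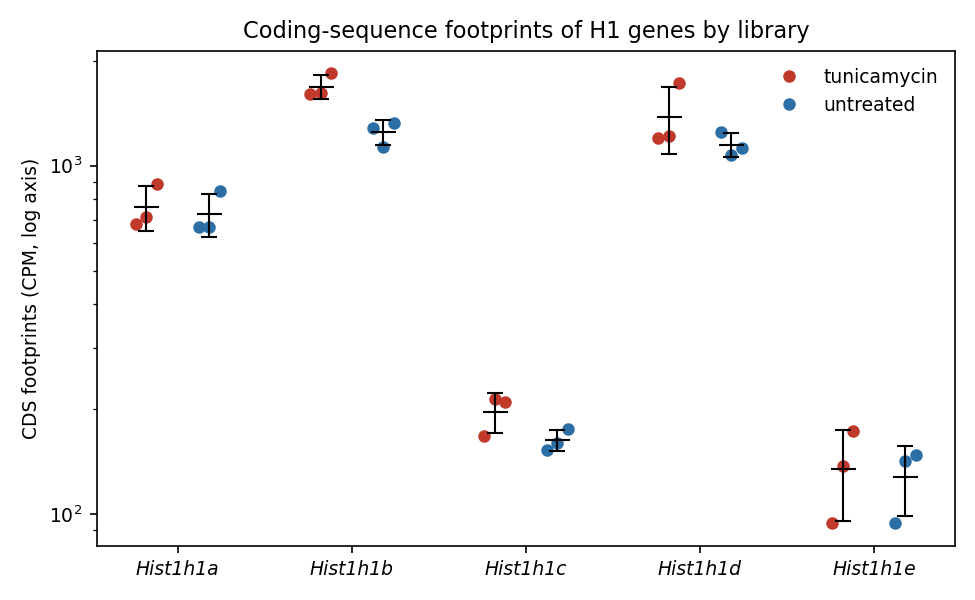
CDS footprints per library of the 5 H1 genes in CPM (log axis), 3 tunicamycin libraries beside 3 untreated libraries for each gene, with black bars for the mean ± SD. Hist1h1b is the gene whose tunicamycin libraries (1599 to 1840) all lie above the untreated ones (1133 to 1326).

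Summed over the 5 genes, H1 footprints came to 3742, 3895 and 4841 CPM under tunicamycin and 3448, 3177 and 3616 CPM in untreated cells, a ratio of means of 1.22. The 62 core histone genes, which supply the nucleosome itself, summed to 17311 ± 4376 CPM and 9333 ± 1333 CPM, a ratio of 1.85. Of 51 core histone genes tested, 32 rose and none fell, where 1.78% of all genes were called higher and 0.799% lower. The median log2 change of the 51 was 0.77, against a median of 0.27 over the 5 H1 genes and 0.00 over all genes tested.

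H1 genes took a smaller part of the replication-dependent histone footprints under tunicamycin. The share was 20.6%, 20.4% and 17.8% in the 3 tunicamycin libraries, against 27.5%, 28.1% and 25.1% in the untreated ones. The groups did not overlap. No test was made of this sum. Among the classes of core histone, the ratio of tunicamycin to untreated means was 2.10 for H2A, 1.64 for H2B, 1.92 for H3 and 1.73 for H4, each above that of H1.

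Within the family, the order of footprint levels per kilobase of transcript was the same in both groups: Hist1h1b, Hist1h1d, Hist1h1a, Hist1h1c, Hist1h1e. The means per kilobase were 2121, 1780, 1022, 272 and 173 CPM under tunicamycin and 1571, 1478, 977, 225 and 164 CPM in untreated cells. The ranges of Hist1h1b and Hist1h1d overlapped in both groups, whereas those of the other neighbours did not. Hist1h1b made up 40.7 ± 2.44% of H1 footprints under tunicamycin and 36.5 ± 0.79% without it. Hist1h1a made up 18.3 ± 0.0764% and 21.3 ± 2.03%. For these 2 genes the shares did not overlap between groups, and for the other 3 they did. How often such shares separate in other gene families was not counted. Shares of 1 total depend on one another, and CDS footprints of Hist1h1a itself were not called lower (log2 change 0.06 ± 0.12, edgeR adjusted p = 0.845).

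RNA reads gave another order. Hist1h1c held 91.9 ± 1.71% of the RNA reads on H1 genes under tunicamycin and 89.1 ± 2.73% in untreated cells. It had 34.4, 36.9 and 36.5 RNA CPM in the tunicamycin libraries, against 45.5, 35.5 and 27.6 CPM in the untreated ones. The tunicamycin values lay inside the untreated range, and the log2 change was -0.02 ± 0.14 (adjusted p = 0.962).

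RNA of the remaining 4 H1 genes was near the lower limit of what these libraries counted. Over all 6 libraries Hist1h1a had 83 reads, Hist1h1b 177, Hist1h1d 269 and Hist1h1e 242, against 6679 for Hist1h1c. Per kilobase, Hist1h1c stood at 49.6 CPM under tunicamycin and 49.9 CPM without it, and the other 4 genes at 0.546 to 1.37 CPM and 0.642 to 2.08 CPM. The labels do not say whether polyadenylated RNA was selected, and its bearing on these levels was not tested.

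Hist1h1b had 0.699, 0.695 and 0.700 RNA CPM under tunicamycin, against 1.39, 1.39 and 0.388 CPM in untreated cells, and the third untreated library lay below all others with 5 reads. The log2 changes were -0.21 ± 0.33 for Hist1h1a, -0.78 ± 0.33 for Hist1h1b, -0.67 ± 0.26 for Hist1h1d and -0.52 ± 0.37 for Hist1h1e. With 1 library left out they ran over -0.46 to -0.038 for Hist1h1a and -0.90 to -0.21 for Hist1h1e. None of the 5 genes passed in edgeR (adjusted p 0.351 to 0.962), and 2 had an unadjusted p under 0.05, as did 12.4% of all genes. DESeq2 called none and gave no adjusted p for 4 of them. Over all 10643 genes, 0.15% were called, and all 16 of those were higher under tunicamycin. The 44 core histone genes tested had a median log2 change of -0.52 in RNA with none called, although 11 had an unadjusted p under 0.05, and the median of the 5 H1 genes was also -0.52.

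**Figure D2:**
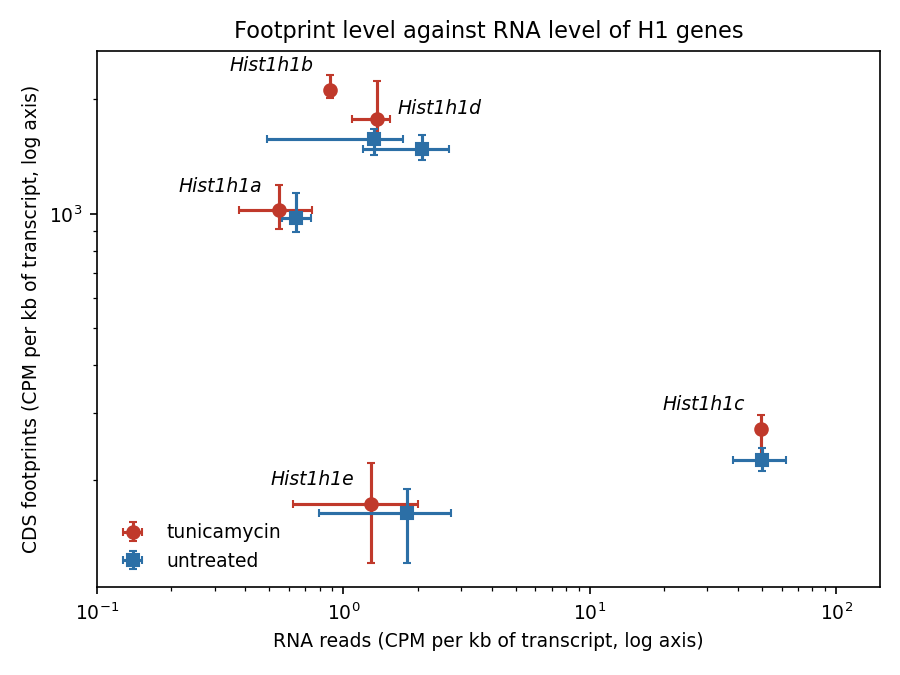
CDS footprints against RNA reads of the 5 H1 genes, both as CPM per kilobase of transcript on log axes, with points at group means and bars from the lowest to the highest of 3 libraries. Hist1h1c lies apart at the right with RNA near 50 and few footprints, whereas Hist1h1b, Hist1h1d and Hist1h1a lie high at the left.

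The ratio of CDS footprints to RNA ran over a wide range. Hist1h1b had 2412 footprint CPM per RNA CPM under tunicamycin and 1184 without it, Hist1h1a 1872 and 1522, and Hist1h1d 1302 and 710. Hist1h1e had 134 and 90.7, and Hist1h1c 5.48 and 4.51. The median ratio over all 6 libraries of each kind was 0.877 among 9409 genes with at least 1 CPM in both measures. Mean RNA of Hist1h1a was below that minimum, at 0.407 CPM under tunicamycin and 0.478 CPM without it. Hist1h1b had 0.698 and 1.05 CPM in the same order, below it under tunicamycin. The high ratios of Hist1h1a and Hist1h1b thus rest on very low RNA. They were not compared with those of genes of equally low RNA.

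The change of this ratio, translational efficiency, was tested as an interaction over 12 libraries. Only Hist1h1b passed, with a log2 change of 1.24 ± 0.29 (adjusted p = 0.0444). Of 9218 genes, 1.02% were called higher. The call was lost in 10 of 18 other settings, with adjusted p values up to 0.216. These were the use of library totals in place of scaling factors (0.0528) and the loss of any 1 of 9 libraries, namely all 3 tunicamycin RNA libraries, untreated RNA replicates 1 and 2, tunicamycin cycloheximide replicates 2 and 3, and untreated cycloheximide replicates 1 and 2. Hist1h1d had a log2 change of 0.96 ± 0.30 (adjusted p = 0.122, and 0.0272 in DESeq2). Hist1h1a (0.28 ± 0.39), Hist1h1c (0.30 ± 0.18) and Hist1h1e (0.61 ± 0.48) did not pass. All 4 ratios other than that of Hist1h1c rest on RNA counts of 4 to 102 reads per library.

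In all 5 H1 genes the leader's share of leader plus CDS footprints was higher in every tunicamycin library than in every untreated one. The same separation was found in 69.2% of 4417 genes. How a footprint that spans leader and CDS was counted is not stated in the labels. Over all genes, the leader share was 8.80 ± 1.46% under tunicamycin and 4.93 ± 0.742% without it (SD, n = 3 each). For the 5 H1 genes together it was 18.4 ± 2.86% and 9.91 ± 0.384%.

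Hist1h1e had leader shares of 36.8%, 32.7% and 32.9% under tunicamycin, against 14.6%, 8.33% and 11.1% in untreated cells. Hist1h1d had 25.7%, 28.0% and 32.2% against 17.2%, 17.0% and 18.1%. Hist1h1c had 26.7%, 24.3% and 31.0% against 13.1%, 14.1% and 18.7%. The smallest shares were those of Hist1h1b and Hist1h1a. Hist1h1b had 8.61%, 10.6% and 12.8% under tunicamycin, against 5.52%, 5.28% and 5.57% in untreated cells. Hist1h1a had 4.89%, 4.49% and 6.91% against 2.35%, 1.56% and 2.62%. The third tunicamycin library was highest in 4 of the 5 genes, all but Hist1h1e.

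**Figure D3:**
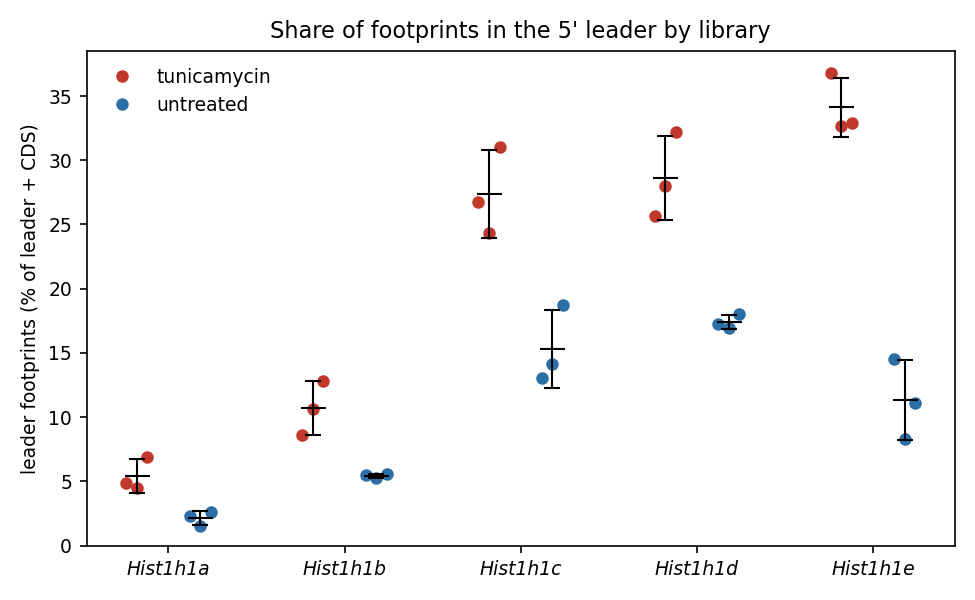
Percent of leader plus CDS footprints that fell on the 5′ leader, per library, for the 5 H1 genes, with 3 tunicamycin libraries beside 3 untreated libraries for each and black bars for the mean ± SD. The groups do not overlap in any of the 5 genes, and Hist1h1e reaches 32.7% to 36.8% under tunicamycin, against 8.33% to 14.6% in untreated cells.

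The ratio of leader to CDS footprints rose in 5 of 5 H1 genes, where 64.3% of all 4417 genes were called higher, so the count itself does not set the family apart. The log2 changes of the ratio were 1.37 ± 0.28 for Hist1h1a (adjusted p = 0.00181), 1.03 ± 0.24 for Hist1h1b (0.00344), 1.07 ± 0.25 for Hist1h1c (0.00332), 0.92 ± 0.23 for Hist1h1d (0.00481) and 2.04 ± 0.26 for Hist1h1e (0.000411). The median over all genes was 0.89. Hist1h1e was at rank 67 of 4417, counted from the largest rise.

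With leader and CDS counts scaled separately, which sets the typical gene near 0 and was a choice made after seeing the data, only Hist1h1e rose. Its log2 change relative to the typical gene was 1.12 ± 0.19 (adjusted p = 0.000332), and it passed in each of the 6 fits that left out 1 library. By this measure 5.23% of genes were called higher and 7.2% lower. Hist1h1a had 0.45 ± 0.17 (adjusted p = 0.0791), Hist1h1b 0.12 ± 0.16, Hist1h1c 0.14 ± 0.17 and Hist1h1d 0.00 ± 0.15.

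The rise of Hist1h1e was also seen in leader footprints without reference to its CDS. Its leader had 54.9, 66.7 and 84.8 CPM under tunicamycin, against 16.1, 12.9 and 18.5 CPM in untreated cells, scaled by the CDS library. The groups did not overlap, as in the other 4 genes on this scale, which keeps the rise common to leaders. The share of all leaders that separate on this scale was not counted, and for the leader share of footprints it was 69.2% of genes. In a fit of leader counts alone, scaled among leaders, Hist1h1e rose by 1.19 ± 0.17 on the log2 scale (adjusted p = 3.68e-05) and Hist1h1b by 0.55 ± 0.17 (0.0356), where 5.21% of 4469 leaders were called higher. Hist1h1a had 0.50 ± 0.20 (0.0986, and 0.0298 with the replicate block).

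The leader to CDS ratio of core histones behaved otherwise by the measure relative to the typical gene, with 0 of 33 higher and 17 lower. Its median log2 change was -0.59, against a median of 0.14 over the H1 genes. With 1 scaling factor per library, a scale on which the median of all genes is 0.89, 12 of the 33 rose and none fell, with a median of 0.33, where 64.3% of all genes were called higher. Their leader share was 38.9 ± 1.15% under tunicamycin and 31.6 ± 2.29% without it, above that of the H1 genes in both groups. In leader counts alone, scaled among leaders, 11 of 33 core histone genes rose and 0 fell, with a median log2 change of 0.44. In that fit the median over the H1 genes was 0.50, and 5.21% of all leaders were called higher and 4.77% lower.

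**Figure D4:**
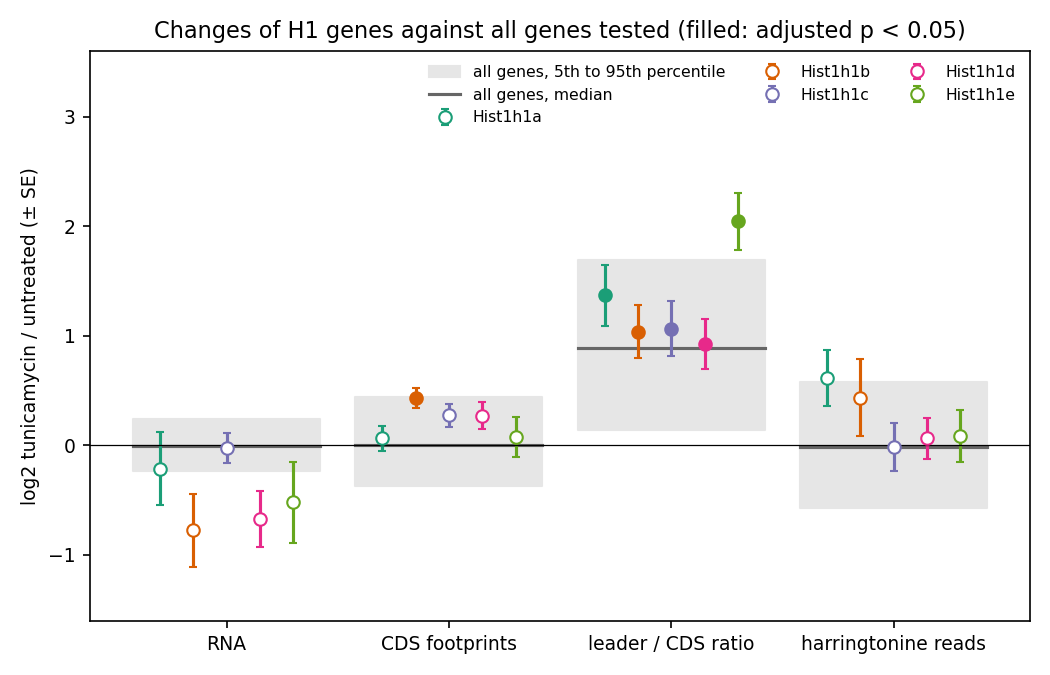
Log2 change under tunicamycin relative to untreated cells of the 5 H1 genes in RNA, CDS footprints, the leader to CDS ratio and harringtonine reads, with bars of ± SE from the edgeR fits, filled points for called genes, and a grey band and line for the 5th to 95th percentile and median of all genes tested. In the leader to CDS ratio all 5 genes and the median gene (0.89) lie above 0, and Hist1h1e is highest at 2.04.

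No H1 gene passed in the 3′ UTR. The 3′ UTR held 0.507% to 2.65% of 3′ UTR plus CDS footprints per gene on average under tunicamycin and 0.301% to 2.74% in untreated cells. Hist1h1e, with 17 such footprints in all 6 libraries, was below the count minimum. None of the other 4 passed in edgeR, nor had any an unadjusted p under 0.05, where 0.449% of 2004 genes were called and 9.63% had an unadjusted p under 0.05. The log2 changes of the 3′ UTR to CDS ratio were 0.34 ± 0.34 for Hist1h1a, -0.07 ± 0.33 for Hist1h1b, -0.04 ± 0.28 for Hist1h1c and -0.13 ± 0.23 for Hist1h1d.

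Harringtonine stops ribosomes just after initiation, so its reads pile up near start codons. The deposited harringtonine files held 9025 single positions, of which 11 lay in the 5 H1 genes. The family was uneven in these reads. Hist1h1d had 1 position, at base 46 of its transcript, with 9459, 8294 and 11752 reads in the tunicamycin libraries and 7657, 7991 and 6887 in the untreated ones. With 52040 reads in all it ranked 5 of the 9025 positions. It held 89.2 ± 1.66% of H1 harringtonine reads under tunicamycin and 89.8 ± 2.12% without it, whereas Hist1h1d held 33.0% and 33.6% of H1 CDS footprints.

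Hist1h1b stood at the other end. Its 4 positions carried 278 reads in all, at bases 16, 274, 482 and 506, although it had the highest CDS level. Reads at positions that were not kept are missing from these counts. The position at base 274 had 19, 22 and 51 reads under tunicamycin, against 7, 5 and 8 in untreated cells. The one at base 482 had 5, 12 and 12 reads under tunicamycin, against 3, 3 and 0. The one at base 506 had 9, 8 and 6 reads under tunicamycin, against 32, 10 and 9. Mean CPM was higher under tunicamycin at bases 274 (52.3 ± 31.2 against 13.9 ± 2.58, SD) and 482 (16.7 ± 7.75 against 4.24 ± 3.72). It was lower at base 506 (12.9 ± 2.22 against 34.5 ± 23.6), where the raw reads of both groups include 9. The counts are small, no position was tested, and the untreated mean at base 506 rests mostly on the first library with its 32 reads. At base 16 the groups overlapped.

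In Hist1h1c the 2 kept positions were neighbours at bases 36 and 37. The first had 442, 455 and 394 reads under tunicamycin, against 441, 290 and 356 in untreated cells. The 30 bases of the start context are shown because this was the 1 member whose start codon fell within the 50 transcribed bases at hand, with the ATG in capitals.
Hist1h1c start context, chr13:23738827-23738856, plus strand: tcctgacttccagagactcatcATGtctga
The kept positions lay 7 and 6 bases before the A of this ATG, which is base 43 of the transcript. Among genes with a single ATG in that window and their main position within it, the most common distance was 13 bases before the A, in 21 of 118 genes on the plus strand and 26 of 123 on the minus strand. The interquartile range of that distance, negative before the A, was -12 to 4.25 on the plus strand and -12 to 8 on the minus strand, which takes in both Hist1h1c positions.

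Hist1h1a had its main position at base 37, with 238, 244 and 375 reads under tunicamycin and 131, 127 and 173 in untreated cells, and a second at base 475 with 220 reads in all. Hist1h1e had positions at bases 23 and 58, with 373 and 117 reads.

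**Figure D5:**
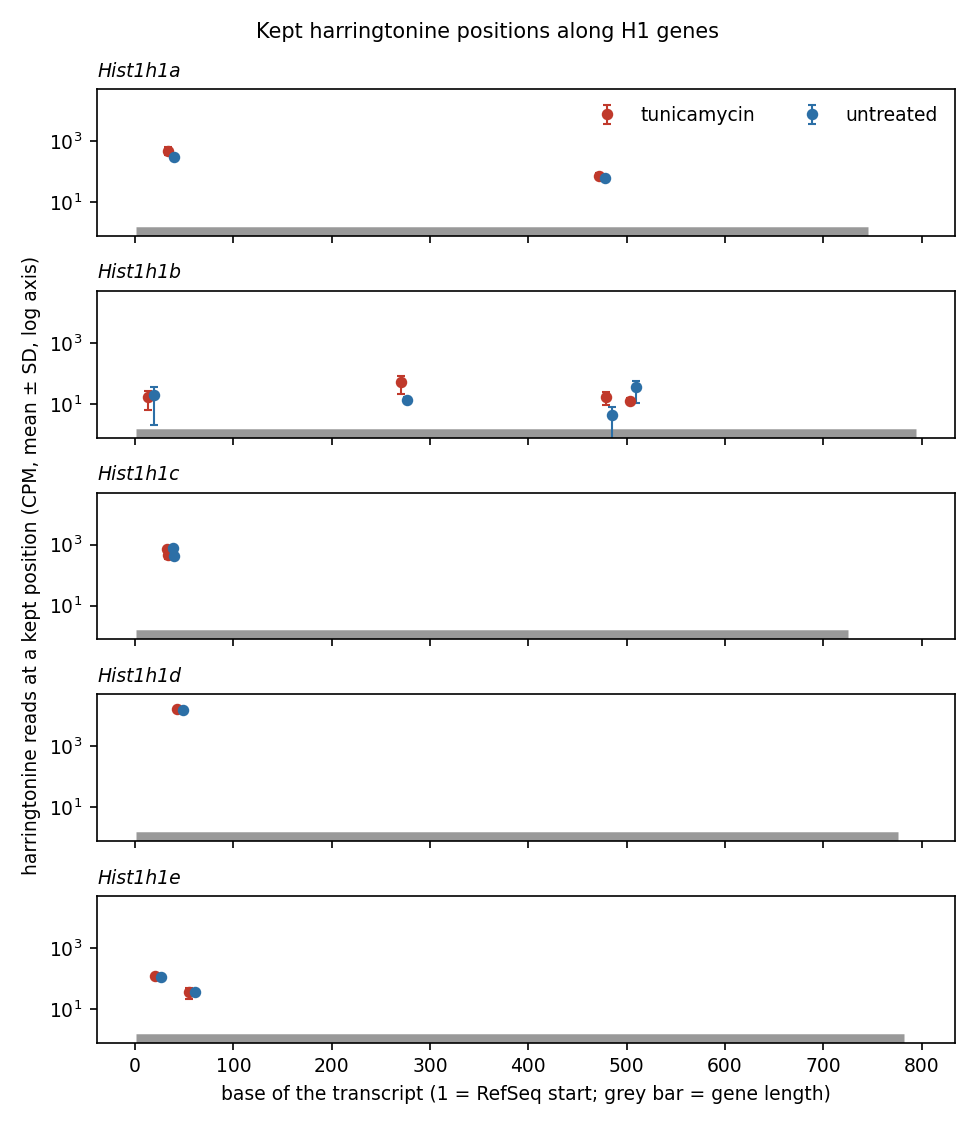
Harringtonine reads per kept position along the transcripts of the 5 H1 genes (grey bars), with the base counted from the transcription start on the horizontal axis and the mean CPM ± SD of 3 libraries on a log axis, tunicamycin drawn just left of untreated for the same base. Hist1h1d has a single position at base 46, and Hist1h1b has only low positions spread to base 506.

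Per gene, harringtonine reads of Hist1h1a were 559 ± 162 CPM under tunicamycin and 365 ± 42.5 CPM in untreated cells. These groups did not overlap, a separation in that direction that 5.08% of 3681 genes had. The log2 change of Hist1h1a was 0.62 ± 0.25 (unadjusted p = 0.0292, adjusted p = 0.998 in edgeR). The other 4 had changes from -0.02 ± 0.22 for Hist1h1c to 0.43 ± 0.35 for Hist1h1b, and their groups overlapped. Over 12 other settings the change of Hist1h1b ran from 0.028 to 1.91 and was never called. Its gene total pools positions whose mean CPM differed in opposite directions on small counts, and no single position was tested. At base 16 lay 20.5% of its reads. None of the 5 passed in edgeR or in DESeq2, where 0.0272% of genes were called in edgeR, and 1 had an unadjusted p under 0.05, as did 3.61% of genes. Relative to CDS footprints none passed either in edgeR or DESeq2, with 0 at an unadjusted p under 0.05, against 0.0569% of 3516 genes called and 7.37% at an unadjusted p under 0.05. The log2 changes of that ratio ran from -0.25 ± 0.24 for Hist1h1c to 0.59 ± 0.28 for Hist1h1a. For Hist1h1b it ran from -0.39 to 1.52 over 18 other settings and was never called.

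Of the other linker histone genes, H1f0 was the 1 with more than 3 RNA reads. It had 160 to 172 RNA CPM under tunicamycin and 158 to 183 CPM without it, with CDS footprints of 23.4 to 27.8 CPM and 22.7 to 30.4 CPM. Its CDS log2 change was -0.03 ± 0.14 (adjusted p = 0.947). Hist1h1t, the testis form, had 1 RNA read and 3 CDS footprints in all libraries, H1fx had 3 RNA reads, and H1fnt, H1foo and Hils1 had none.

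Genes that make or handle histones were also counted in CDS footprints, where 1.78% of all genes were called higher and 0.799% lower. Of 18 histone mRNA factors tested, 1 rose (2 with the replicate block), Npat, the coactivator of histone gene transcription, with a log2 change of 0.44 ± 0.11 (adjusted p = 0.0440), and the list's median was 0.05. Lsm1, part of the ring that starts decay of histone mRNA, had 0.37 ± 0.13 (0.156), and Sympk, a scaffold of the histone 3′ end cleavage machinery, had -0.23 ± 0.09 (0.192). None of 4 genes for linker histone chaperones and competitors passed (1 rose with the replicate block), among them Nasp, a chaperone of H1 and of H3 and H4, at 0.16, Hmgb1 at 0.35, Npm1 at 0.26 and Set at 0.25, and 1 of the 4 had an unadjusted p under 0.05.

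Of 5 replacement histones, 2 rose, the centromeric Cenpa (0.57 ± 0.11, adjusted p = 0.0145) and the DNA damage variant H2afx (0.47 ± 0.11, adjusted p = 0.0368). None of 20 S phase genes passed in edgeR (1 fell with the replicate block), 2 had an unadjusted p under 0.05 (16.6% of all genes did), and the median was 0.01. The smallest p values among them belonged to the cyclins Ccne2 at -0.34, Ccne1 at -0.23 and Ccna2 at -0.16 and the primase subunit Prim1 at 0.16.

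Each member's footprint pattern over the 6 libraries was also set against 6180 genes of at least 20 CPM, by the root mean square difference of centred log2 values. The nearest genes were Il10rb for Hist1h1a (0.0330), Wdr83 for Hist1h1b (0.0415), Zdhhc17 for Hist1h1c (0.0413), 2700049A03Rik for Hist1h1d (0.0633) and Sys1 for Hist1h1e (0.0646). Each of these is the smallest of 6180 distances over only 6 libraries, so it cannot be set against the unselected distances between H1 genes. Between H1 genes the distance ran from 0.148 for Hist1h1b and Hist1h1c to 0.361 for Hist1h1b and Hist1h1e. The median distance of all these genes was 0.214 from Hist1h1a, 0.267 from Hist1h1b, 0.223 from Hist1h1c, 0.255 from Hist1h1d and 0.357 from Hist1h1e.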

How the data were processed

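RNA reads per gene, cycloheximide footprints per leader, CDS and 3′ UTR, and harringtonine reads per position were used as raw counts deposited by the authors. Per the submitters' processing notes, the authors used STAR, HTSeq and edgeR (versions not stated), and the builds were mm10 and GRCm38. How reads that match near-identical H1 genes or span leader and CDS were assigned, and whether strand was used, was not stated in the labels, so counts of single H1 genes are uncertain to that extent. The H1 genes and all gene lists were chosen with earlier results of these data known.

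The quasi-likelihood test of edgeR 4.0.16 (R 4.3.3) was run on the counts (low counts removed by filterByExpr, minimum count 10 and minimum total 15; TMM factors; Benjamini-Hochberg adjustment over all genes tested, adjusted p under 0.05 called), with DESeq2 1.42.0 as an alternative. CPM is counts per 1000000 of the TMM-scaled library, and SE is the log2 change divided by the square root of F. Each fit used 6 libraries. Translational efficiency and the harringtonine to CDS ratio were interactions over 12 libraries. Leader and 3′ UTR ratios were interactions with the library as a term, 1 scaling factor per library, and both parts past the filter. Levels per kilobase use the RefSeq length of these intronless transcripts, where protein lengths had been foreseen. Names beyond the H1 genes are at most the 4 of each list with the smallest p in CDS footprints, and the nearest of the 3 genes closest in pattern to each H1 gene. Same-numbered libraries deviated together (correlations 0.604, 0.569 and 0.278 in RNA and 0.435, 0.112 and 0.327 in CDS footprints), so the numbers may mark pairs. Tunicamycin RNA replicate 3 correlated almost as well with untreated RNA replicate 2 (0.270). The main fits had no replicate term, and the replicate block was run as an alternative. Intervals are spread between libraries, and no counting interval is given.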

Additional observations from a re-analysis of the deposited data

How the results depend on the processing

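Leaving out 1 library at a time changed the number of genes called to 3 to 26 for RNA, 58 to 431 for CDS footprints (0 to 2 H1 genes higher), 20 to 296 for translational efficiency (0 to 1 H1 genes), 1788 to 2828 for the leader ratio (5 H1 genes throughout), 0 to 27 for the 3′ UTR ratio, 0 to 2 for harringtonine reads and 0 to 5 for harringtonine against CDS. Without a filter on low counts, 122 genes were called in RNA, 573 in CDS footprints, 31 in the 3′ UTR ratio and 1 in harringtonine against CDS. With the replicate block, the numbers were 410 in RNA, 885 in CDS footprints with 2 H1 genes, and 830 in translational efficiency, and the block changed no other H1 call there. DESeq2 called 97 genes in RNA, 356 in translational efficiency with 2 H1 genes, 2 in harringtonine reads and 19 in harringtonine against CDS. With leader and CDS scaled separately 549 genes and 1 H1 gene were called, and 434, 323, 152, 528, 281 and 522 genes without tunicamycin replicates 1 to 3 and untreated replicates 1 to 3 in turn. With leaders alone 446 and 2, and with leaders alone under the replicate block 559 and 3. Library totals left 0 H1 genes in translational efficiency and 1 gene in harringtonine against CDS, RLE scaling left 1 there, and the main position of each gene left 0. The causes were not tested.

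Within a given scaling, signs changed in values that had not passed. RNA of Hist1h1c was 0.011 under the block and -0.17 to 0.17 with 1 library left out. Leaving out 1 library gave CDS footprints of -0.064 to 0.18 for Hist1h1a and -0.15 to 0.28 for Hist1h1e. Leader ratios scaled separately were -0.032 for Hist1h1c without untreated replicate 1, and -0.0082, -0.062 and -0.042 for Hist1h1d without tunicamycin replicate 2, untreated replicate 1 and untreated replicate 3. The 3′ UTR ratio ran over -0.45 to 0.24 for Hist1h1b, -0.26 to 0.11 for Hist1h1c and -0.35 to 0.013 for Hist1h1d, and harringtonine reads over -0.15 to 0.085 for Hist1h1c and -0.10 to 0.17 for Hist1h1d. With 1 library left out, harringtonine against CDS ran over -0.39 to 0.30 for Hist1h1b and -0.18 to 0.23 for Hist1h1e. It was -0.024 for Hist1h1b and -0.0069 for Hist1h1e with library totals, and -0.0049 for Hist1h1b without a filter.

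A block could not be added to the leader and 3′ UTR ratios, whose library term contains it. Same-numbered harringtonine libraries correlated at 0.403, 0.0886 and 0.143 and the third tunicamycin library correlated best with the second untreated one, so there they share only a number. A replicate block on it, chosen after seeing the data, called 3 genes in harringtonine reads and 25 against CDS, none of them H1, and gave Hist1h1b -0.0054 against CDS. RNA depth limits the ratios of Hist1h1a, Hist1h1b, Hist1h1d and Hist1h1e.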

Other observations

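Relative to the typical gene, the leader to CDS ratio rose in 6 of 15 S phase genes tested and fell in none, with a median log2 change of 0.38, where 5.23% of all genes were called higher and 7.2% lower. In CDS footprints 0 of 20 S phase genes were called in edgeR, 2 had an unadjusted p under 0.05, and 1 fell with the replicate block. By the same measure Nasp, a histone chaperone, rose by 0.93 ± 0.25 (adjusted p = 0.0129), Npm1, an abundant nucleolar chaperone, had a lower ratio at -0.47 ± 0.16 (adjusted p = 0.0494), and Cenpa a lower one at -0.73 ± 0.18 (adjusted p = 0.00791). This scaling was chosen after seeing the data. With 1 scaling factor per library, 14 of the 15 S phase genes rose, where 64.3% of all genes did.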
